A study of Mus musculus with 11 samples.

Results

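Aquaporins are the channel proteins that let water, and in some members glycerol or hydrogen peroxide, cross cell membranes. RNA of 8 aquaporin genes, Aqp1, Aqp3, Aqp4, Aqp5, Aqp7, Aqp8, Aqp9 and Aqp11, was examined in whole mouse colons at 2 weeks of age. They were picked by name among 35683 genes, because Aqp11 had been lower in mice without the TNF receptor TNFR1 and the question was whether other aquaporins shared that difference. Libraries came from 6 Tnfr1-/- mice, which lack TNFR1 (gene Tnfrsf1a), and from 5 wild-type mice of the same age. No other allele, agent or treatment is named for either genotype, and neither strain, sex nor litter is given, so litter or cage and genotype cannot be told apart. Libraries are numbered within each genotype, so numbers recur between genotypes, and each library was taken as a separate mouse.

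Each value is in TPM, a transcript level per length and per library total, rescaled by the authors between libraries. Summed over the transcripts of a gene it is called abundance here. Abundance is per length, so that levels of different genes can be compared. Estimated depth was 29500000 to 39600000 reads in Tnfr1-/- libraries and 27600000 to 42000000 reads in wild-type libraries. Tnfrsf1a itself was at 22.4 ± 3.54 (SD) in the 6 Tnfr1-/- colons, against 67.1 ± 5.04 (SD) in the 5 wild-type colons, without overlap, so the labels hold for the deleted gene. The 8 colon markers were all present, with a summed abundance of 1369 to 2132 in Tnfr1-/- and 1518 to 2772 in wild-type libraries. Of the 8, 7 had a log2 fold change below 0, 0 were called by limma, and the mean sum in Tnfr1-/- was 75.3% of that in wild type. In wild-type replicates 1 and 2 the markers of surface colonocytes summed to 3854 and 3791, above every other library (2130 to 2797). Tnfr1-/- replicate 2 stood apart in skeletal muscle markers, at 7459 against 389 to 2386 in the others. In bulk tissue, fewer cells of a type and less RNA per cell cannot be told apart.

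Aquaporins sit in membranes as tetramers in which each subunit has a pore of its own. The classical members (among them Aqp1, Aqp4, Aqp5 and Aqp8) pass mainly water, the aquaglyceroporins (Aqp3, Aqp7 and Aqp9) also pass glycerol and other small solutes, and Aqp11 belongs to an unorthodox branch found in the endoplasmic reticulum. In the colon, water follows absorbed salt across the epithelium. Aqp8 is a channel of surface colonocytes, and Aqp4 lies in the basolateral membrane of the mouse colonic epithelium. Aqp1 is typical of capillary endothelium, Aqp5 of secretory glands, Aqp7 of fat cells, Aqp9 of liver and leukocytes, and Aqp3 of basal layers of stratified epithelia.

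Aqp8 was by far the most abundant aquaporin of the 2-week colon. It averaged 505 ± 73.1 over the 11 libraries (SD) and made up 79.2% of the summed abundance of the family, between 67.4% and 84.2% in single libraries. It ranked 250th by mean abundance among the 15079 genes above the filter of 1 in at least 5 libraries, and its lowest library (396) lay above the highest library of any other aquaporin (124, for Aqp4). Aqp1 followed at 55.5 ± 7.93 and Aqp4 at 48.3 ± 34.0 (SD, n = 11 each), and their ranges overlapped. Aqp3 (12.2 ± 5.75) and Aqp11 (10.1 ± 1.77) overlapped with each other as well. At the low end, Aqp5 averaged 2.65 with most libraries below 1, Aqp7 averaged 1.79 ± 0.447, and Aqp9 averaged 0.792 ± 0.308 (SD, n = 11 each).

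The family spanned several orders of magnitude, and 5 further family genes were near zero. The lens channel gene Mip did not exceed 0.199 and Aqp12 did not exceed 0.130 in any library. Aqp6, the kidney collecting duct channel Aqp2 and the pseudogene Aqp10-ps did not exceed 0.0254, 0.0512 and 0.0572. Aqp2, Aqp5 and Aqp6 lie side by side on chromosome 15 (99579055 to 99605477), and of these only Aqp5 exceeded 1 in any library. Aqp2 was listed at 0 in 10 of the 11 libraries, and its highest value, in Tnfr1-/- replicate 4, came to an estimated 2.0 reads. At this depth Aqp9 rested on an estimated 19.4 to 102.7 reads per library and Aqp7 on 58.4 to 135.2, whereas Aqp8 had at least 13170 in each.

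**Figure D1:**
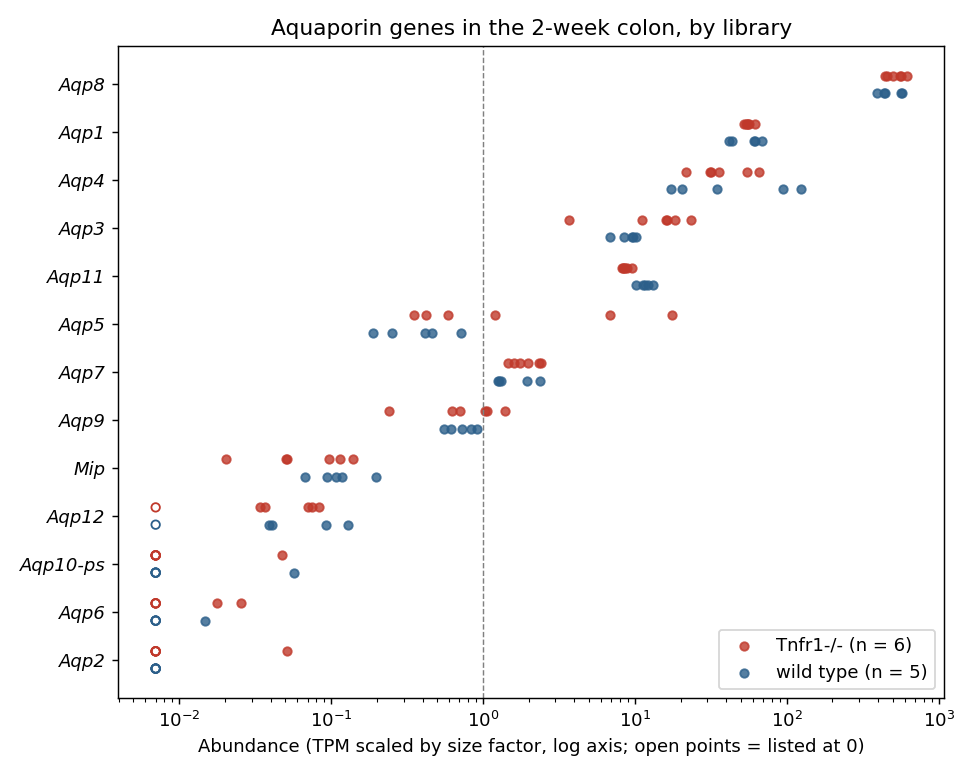
Abundance of 13 aquaporin family genes on a log axis, with 1 point per library in Tnfr1-/- (upper row of each gene, n = 6) and wild type (lower row, n = 5). Open points are values listed at 0, drawn left of the axis range of the others, and the dashed line marks the filter value of 1. Aqp8 lies between 396 and 616 in all 11 libraries, apart from every other member.

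Aqp11, a channel of the endoplasmic reticulum whose loss causes polycystic kidneys in mice, was lower in every Tnfr1-/- colon. In Tnfr1-/- libraries it ran from 8.24 to 9.60 with a median of 8.57, while wild-type replicates 1 to 5 had 13.2, 11.7, 11.3, 10.2 and 12.3. The groups did not overlap, and the Tnfr1-/- mean (8.69 ± 0.50, SD, n = 6) was 74.1% of the wild-type mean (11.7 ± 1.12, SD, n = 5). The log2 fold change, Tnfr1-/- over wild type, was -0.41 (SE 0.07). Since this difference chose the family, it is given as a description, with no test. Among the colon markers, Cdx2, a transcription factor of intestinal epithelium, was also without overlap, at 55.7 to 92.4 in Tnfr1-/- and 102.1 to 129 in wild-type libraries, and was chosen after its values were seen. The part of epithelial content in the Aqp11 values was not tested. Across the table, every Tnfr1-/- library lay below every wild-type library for 116 genes, or 0.769% of those tested.

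The Aqp11 transcript of 896 bases had a larger fold change between the genotypes than that of 3737 bases, which took most of the gene's reads. The gene (ENSMUSG00000042797, chromosome 7, 97724006 to 97738289, minus strand, GRCm38) has 5 annotated transcripts. ENSMUST00000206389.1 has 3 exons and 3737 bases, and its middle exon codes for part of the channel. ENSMUST00000084986.7 has 2 exons and 896 bases and skips the middle exon. It also starts 351 bases after the 3-exon form and ends 2373 bases before it. These are called the short and the long transcript here. ENSMUST00000205737.1, of 5798 bases, took 0.969% of the gene's abundance, and ENSMUST00000205932.1, of 201 bases, was listed at 0 in all libraries. The middle exon spans chr7:97728971-97729087 and holds 117 bases, or 39 codons, so skipping it keeps the reading frame. The sequences below, from the GENCODE M21 transcripts on the gene's strand, show how the transcripts differ at the middle exon. Most of the bases that separate them lie at the 2 ends instead. Capitals mark the middle exon in the first and the start of the last exon in the second.
Aqp11 with the middle exon: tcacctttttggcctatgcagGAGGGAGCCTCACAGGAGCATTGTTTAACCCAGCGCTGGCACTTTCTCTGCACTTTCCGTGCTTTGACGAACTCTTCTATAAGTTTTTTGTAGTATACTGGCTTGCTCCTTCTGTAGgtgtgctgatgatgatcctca
Aqp11 without the middle exon: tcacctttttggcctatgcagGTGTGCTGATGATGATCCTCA

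The short transcript without the middle exon ran from 3.44 to 5.41 in Tnfr1-/- libraries (median 4.73), and was 7.10, 6.17, 5.84, 6.29 and 6.58 in wild-type replicates 1 to 5. Its groups did not overlap either, as was so for 0.64% of all tested transcripts in this direction and 0.556% in the other. The log2 fold change was -0.46 (SE 0.11). The long transcript with the middle exon was at 3.20 ± 0.161 (SD) in the 6 Tnfr1-/- colons, against 3.46 ± 0.485 (SD) in the 5 wild-type colons, with overlapping groups and a log2 fold change of -0.09 (95% interval -0.31 to 0.13). ENSMUST00000205784.1, a transcript that retains an intron, was at 0.835 ± 0.692 (SD) in the 6 Tnfr1-/- colons, against 1.78 ± 0.708 (SD) in the 5 wild-type colons. In Tnfr1-/- replicates 1 and 2 it was at 0.00241 and 0.00641. Its log2 fold change was -0.94 (SE 0.43), farther from 0 than that of the short transcript, on at most an estimated 25.2 reads per library. All of these are again descriptions of the difference that chose the gene.

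Counted as reads rather than per length, the Aqp11 difference was smaller. The long transcript took 33.6% of the gene's abundance but an estimated 71.2% of its reads, on average over the libraries, and the short one took 53.5% of the abundance but 22.7% of the reads. Reads were also summed and scaled to each library's total of estimated reads (RPM). Aqp11 in RPM was 12.4 ± 0.542 (SD) in the 6 Tnfr1-/- colons, against 14.3 ± 1.27 (SD) in the 5 wild-type colons. On that scale, 3 of 6 Tnfr1-/- libraries were below the lowest wild-type library, and the log2 fold change was -0.20 (SE 0.07), against -0.41 for summed abundance. The short transcript had an estimated 72.0 to 118.2 reads in Tnfr1-/- libraries and 111.5 to 158.4 in wild-type libraries. Reads of 75 bases from a single end were divided among overlapping transcripts by the authors' software, and reads across the exon junction were not analysed here.

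**Figure D2:**
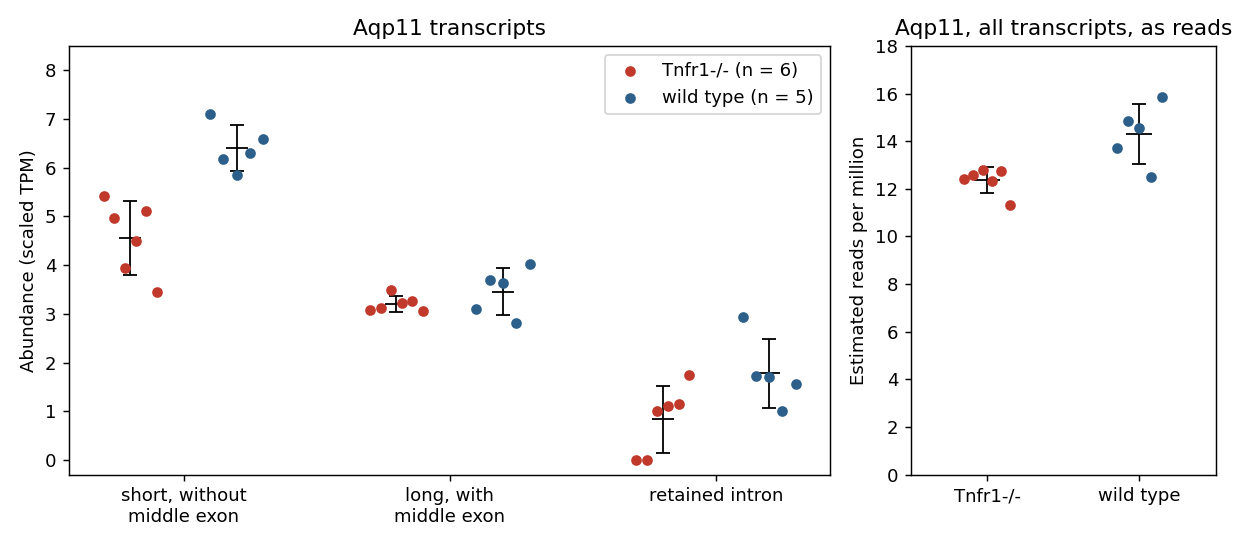
Left, abundance (scaled TPM) of the 3 Aqp11 transcripts above the filter, with 1 point per library, Tnfr1-/- left of wild type and bars for mean and SD. Right, Aqp11 over all transcripts as estimated reads scaled to each library's total of estimated reads (RPM). The short transcript separates the genotypes (at most 5.41 in Tnfr1-/-, at least 5.84 in wild type), the long one does not, and the read-based sums overlap.

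No aquaporin other than Aqp11 was separated by genotype, and no call was made. Of the 8 genes, 6 passed the filter, and Aqp5 and Aqp9 fell below it. Among the 5 others that passed, 0 were called at a limma adjusted p under 0.05, and 0 had an unadjusted p under 0.05. Over all genes, 0.00663% were called, 1 of 15079, namely Tnfrsf1a, and 9.37% had an unadjusted p under 0.05. Of the 5, 4 had a log2 fold change above 0 and Aqp4 had one below 0. At the level of transcripts, 0 of 7 tested from these 5 genes were called by limma, against 0.00902% of 33276 tested, and the smallest adjusted p among them was 0.727. In the authors' deposited table, all 15 transcripts of the 8 genes that carry a q-value have a q of 1.

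**Figure D3:**
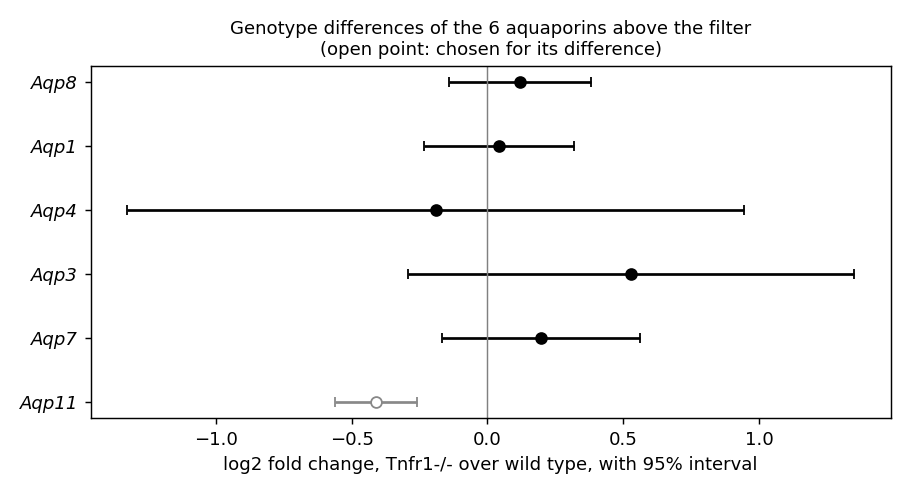
log2 fold change with its 95% interval from the fit across all genes, Tnfr1-/- over wild type, for the 6 aquaporins above the filter. The open point is Aqp11, which was chosen for its difference. The intervals of the 5 others all include 0, and those of Aqp4 (-1.33 to 0.94) and Aqp3 (-0.29 to 1.35) are the widest.

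Among the classical water channels, Aqp8 differed between the genotypes by less than its spread within either. Aqp8 (chromosome 7, 123462291 to 123468004) ran from 447 to 616 in Tnfr1-/- libraries with a median of 528, and was 567, 396, 434, 446 and 576 in wild-type replicates 1 to 5. The ranges overlapped over most of their length. The fitted log2 fold change came to 0.12 (SE 0.12, 95% interval -0.14 to 0.38, adjusted p = 0.783 by limma). Its RNA came as 2 main transcripts that differ by 3 coding bases at the start of the second exon (chr7:123462571-123462573, plus strand, GRCm38). ENSMUST00000033023.9, which lacks these bases, took 87.4% of the gene's abundance, and ENSMUST00000098056.5, which holds them, took 12.4%. Over its whole length ENSMUST00000033023.9 is the longer of them, with 1487 against 1451 bases. Capitals mark the 3 coding bases, and both runs start at the start codon.
Aqp8 with the 3 coding bases: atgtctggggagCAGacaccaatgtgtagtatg
Aqp8 without the 3 coding bases: atgtctggggagacaccaatgtgtagtatg
ENSMUST00000098056.5 was at 66.1 ± 8.34 (SD) in the 6 Tnfr1-/- colons, against 59.3 ± 16.4 (SD) in the 5 wild-type colons, a log2 fold change of 0.19 (adjusted p = 0.792 by limma). The 7 surface colonocyte markers, among them carbonic anhydrase genes and Slc26a3, all had a log2 fold change below 0, none of them called, and summed to 2130 to 2785 in Tnfr1-/- and 2244 to 3854 in wild-type libraries. Wild-type replicates 1 and 2 were highest in that sum, yet Aqp8 was at 567 in the one and 396, the lowest of all libraries, in the other.

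Aqp1, the water channel of capillary endothelium, was the steadiest aquaporin across libraries along with Aqp8, with a coefficient of variation of 14.3% (14.5% for Aqp8). It ran from 52.2 to 61.8 in Tnfr1-/- libraries with a median of 55.0, and was 41.6, 43.3, 60.9, 61.9 and 68.3 in wild-type replicates 1 to 5. Wild-type replicates 1 and 2 lay below every other library, and the other wild-type libraries lay at or near the top. The fitted log2 fold change came to 0.04 (SE 0.12, adjusted p = 0.949 by limma) and turned to -0.19 (adjusted p = 0.197 by limma) without those 2 libraries. The 7 endothelial markers summed to 118 and 110 in wild-type replicates 1 and 2, to 135 to 162 in the other wild-type libraries and to 122 to 142 in Tnfr1-/- libraries. Their part in the Aqp1 values was not tested.

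Aqp4 varied widely between mice, most of all within wild type. In Tnfr1-/- libraries Aqp4 ran from 21.8 to 65.4 with a median of 33.8. Wild-type replicates 1 and 2 had 94.4 and 124, but replicates 3 to 5 had only 20.3, 34.7 and 17.2. All Tnfr1-/- libraries fell inside the wild-type range, and the highest library was 7.19 times the lowest. The log2 fold change of -0.19 (SE 0.52, 95% interval -1.33 to 0.94, adjusted p = 0.946 by limma) turned to 0.69 (adjusted p = 0.359 by limma) without wild-type replicates 1 and 2, to 0.09 without replicate 1 alone and to 0.19 without replicate 2 alone. Aqp4 is also a channel of astrocytes and skeletal muscle. The markers of enteric glia and astrocytes summed to 15.4 to 19.6 in Tnfr1-/- libraries, to 15.1 and 13.5 in wild-type replicates 1 and 2, the lowest of all, and to 20.8 to 21.8 in the other wild types. Skeletal muscle markers were at 611 and 594 in wild-type replicates 1 and 2, within the 389 to 7459 of the other libraries. The sum of the surface colonocyte markers was highest in wild-type replicates 1 and 2. Krt20, a keratin of the surface epithelium, ran from 136 to 229 in Tnfr1-/- libraries, while wild-type replicates 1 and 2 had 422 and 384 and the remaining wild types 117 to 151. Slc26a3, a chloride-bicarbonate exchanger, ran from 8.91 to 17.4 in Tnfr1-/- libraries, and was 29.9 and 36.8 in these libraries and 12.4 to 13.6 in the remaining wild types. Car4 and Ceacam1 were also highest in wild-type replicates 1 and 2, but the rest of the list did not have both on top. Car1 was at 1596 in wild-type replicate 2 and 1705 in replicate 5. Cdhr5 was at 367 in wild-type replicate 1 and 381 in Tnfr1-/- replicate 3. Tmigd1 was highest in wild-type replicate 3 (104.7). The part of surface colonocytes in the Aqp4 values was not tested.

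The genes most like Aqp4 over the 11 libraries shared its high values in wild-type replicates 1 and 2. Of 10859 genes compared by Pearson's r of log2 abundance, the 3 nearest were Sprr2a3 and Sprr2a2, small proline-rich proteins of epithelia, and Akr1b8, an aldo-keto reductase (r = 0.99, 0.99 and 0.98, Spearman's rho 0.94, 0.94 and 0.94). Sprr2a3 ran from 148 to 410 in Tnfr1-/- libraries, while wild-type replicates 1 and 2 had 620 and 745 and the remaining wild types 86.0 to 189. Without wild-type replicates 1 and 2 the r of Aqp4 with Sprr2a3 was still 0.97, so it does not rest on them alone. Reads of the Sprr2a copies are near-identical, which leaves their separate values uncertain. These values of r are maxima over many genes and describe likeness in these libraries, with no test.

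Aqp5, the water channel of secretory glands, was near the floor in most colons and high in 2 of them. It was at 17.7 in Tnfr1-/- replicate 2 and 6.85 in replicate 4, against 0.350 to 1.205 in the other Tnfr1-/- libraries and 0.188 to 0.717 in the 5 wild-type libraries. In estimated reads this was 429.0 and 200.5 in those 2 libraries and at most 29.9 elsewhere. With 3 libraries at 1 or more it fell below the filter. Without a filter the fitted log2 fold change came to 1.44 (SE 0.77, 95% interval -0.27 to 3.14, adjusted p = 0.730 by limma). The goblet cell markers were at 4908 and 6446 in those 2 libraries, within the 4618 to 9692 of the others. The skeletal muscle sum was 7459, the highest of all, in Tnfr1-/- replicate 2 and 936 in replicate 4. It was 389 to 2386 in the others, highest among them in Tnfr1-/- replicate 5, where Aqp5 was 0.589. The squamous marker sum was 636 and 761, within the 180 to 769 of the others. Its highest value was in Tnfr1-/- replicate 6, where Aqp5 was 0.421. The part of these tissues in the Aqp5 values was not tested.

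The genes most like Aqp5 followed it less closely than was the case for Aqp4. They were Utp4, a ribosome assembly factor, Cyp2f2, a cytochrome P450, and Ubac1 (r = 0.91, 0.88 and 0.87). Without Tnfr1-/- replicates 2 and 4 those values were 0.46, 0.40 and 0.55, so the likeness rests on these libraries. Cyp2f2 was at 22.8 and 33.7 in Tnfr1-/- replicates 2 and 4 and between 5.16 and 10.4 in the other 9 libraries.

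**Figure D4:**
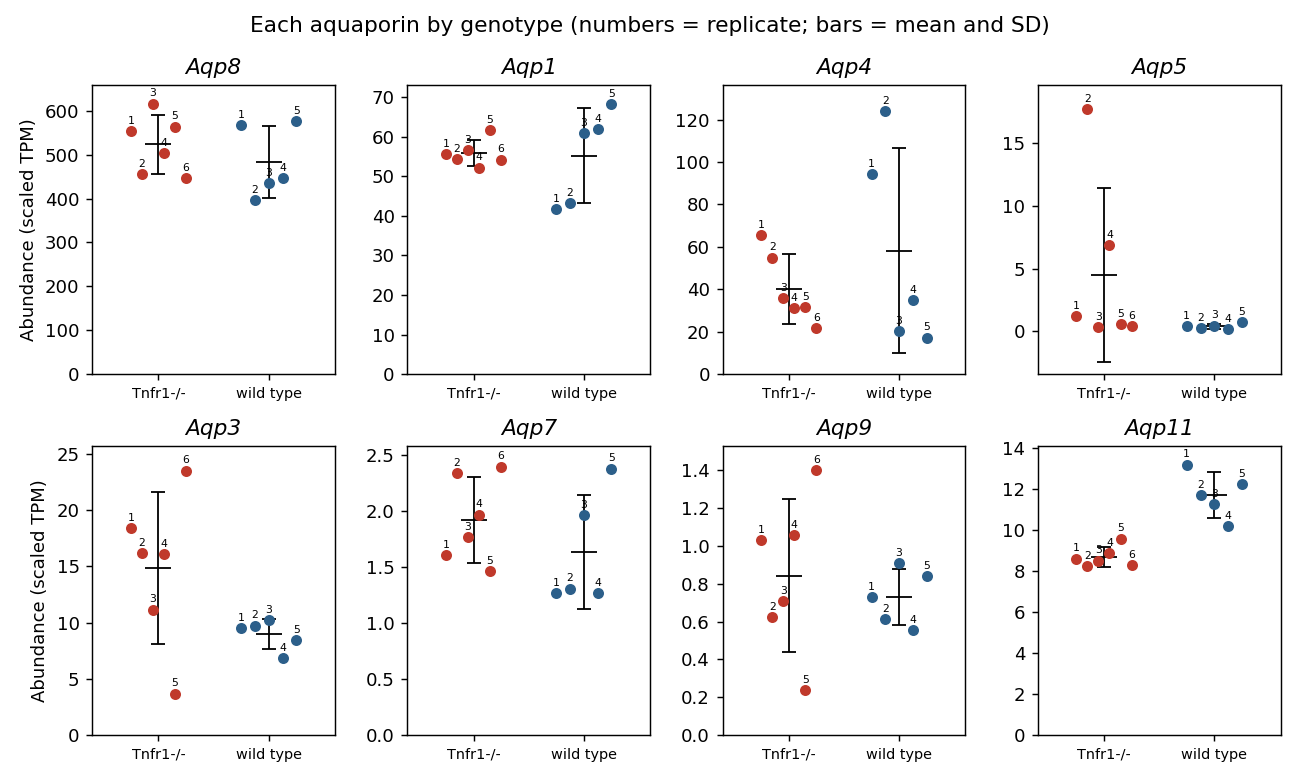
Abundance (scaled TPM) of each aquaporin in Tnfr1-/- (left, n = 6) and wild type (right, n = 5), with 1 point per library numbered by replicate, and bars for mean and SD. Genotypes are apart for Aqp11, chosen for it, while Aqp4 is led by wild-type replicates 1 and 2 and Aqp5 by Tnfr1-/- replicates 2 and 4.

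Among the aquaglyceroporins, of which Aqp7 (41033074 to 41048139) and Aqp3 (41092722 to 41098183) are near each other on chromosome 4, Aqp3 had the largest fold change of the 5 tested, without passing. It was at 18.4, 16.2, 16.1 and 23.5 in Tnfr1-/- replicates 1, 2, 4 and 6, but only 11.2 in replicate 3 and 3.67 in replicate 5. The wild-type replicates 1 to 5 had 9.53, 9.72, 10.2, 6.84 and 8.46. Of 6 Tnfr1-/- libraries, 5 lay above the highest wild-type library and 1 lay below the lowest. Every Tnfr1-/- library lay above every wild-type library for 0.723% of all tested genes, and for 0 of these 5. The fitted log2 fold change came to 0.53 (SE 0.37, 95% interval -0.29 to 1.35, adjusted p = 0.693 by limma) and 0.87 (adjusted p = 0.248 by limma) without Tnfr1-/- replicate 5.

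Markers of squamous and basal epithelium, such as the keratins Krt5 and Krt14, were high and low in much the same libraries as Aqp3. All 6 of these markers were measured above the filter and none was at 0 in any library. All 6 had a log2 fold change above 0, and 0 were called by limma. Their sum was 608, 636, 396, 761, 180 and 769 in Tnfr1-/- replicates 1 to 6 and 282, 355, 371, 225 and 355 in wild-type replicates 1 to 5. Tnfr1-/- replicate 5, lowest in Aqp3, was also the lowest in Krt14 (18.8, against 90.9 to 306 elsewhere) and Krt5 (19.2, against 73.8 to 365 elsewhere), and in Trp63 and Dsg3. The other keratins of the list were not low there. Krt13 lay above all wild types (38.1 to 95.9) in that library, and Krt4 lay above 4 of 5 wild types. Tnfr1-/- replicate 6, highest in Aqp3, was the highest in that sum. The genes most like Aqp3 were Slurp1, a secreted keratinocyte protein, Calm4, a calmodulin-like protein of epidermis, and Fabp5, the epidermal fatty acid binding protein (r = 0.98, 0.97 and 0.97, and 0.93, 0.92 and 0.91 without Tnfr1-/- replicates 5 and 6). The part of squamous tissue in the Aqp3 values was not tested.

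**Figure D5:**
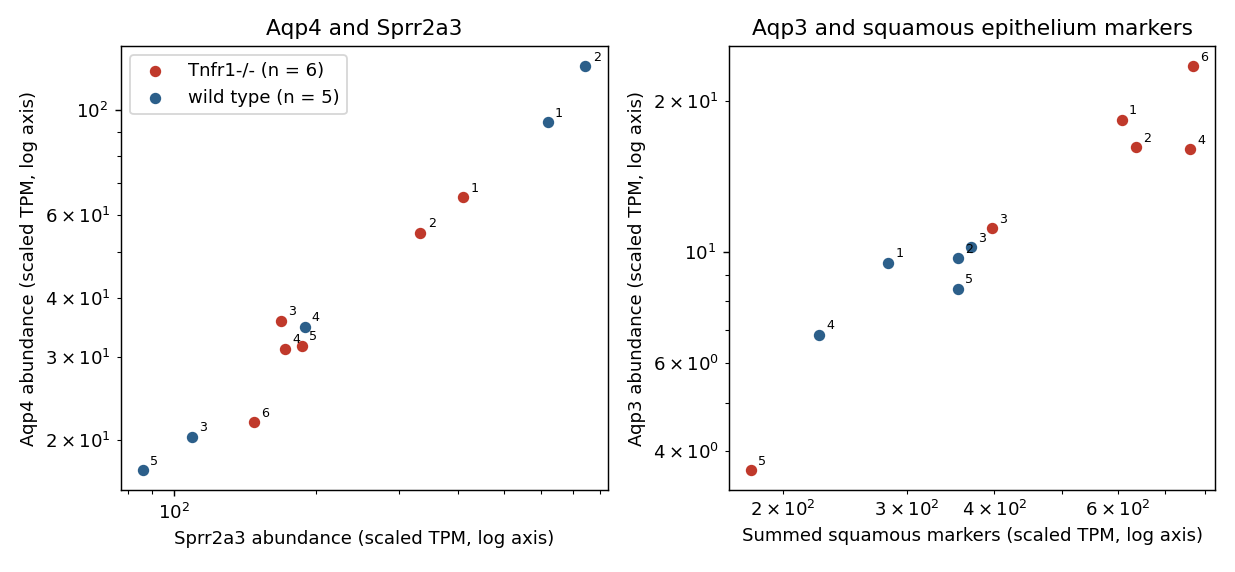
Left, Aqp4 against Sprr2a3, and right, Aqp3 against the sum of 6 squamous epithelium markers, all as abundance (scaled TPM) on log axes, with 1 point per library numbered by replicate. Wild-type replicates 1 and 2 are at the upper right on the left, and on the right Tnfr1-/- replicate 5 is lowest and Tnfr1-/- replicates 1, 2, 4 and 6 are highest on both axes.

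Aqp7, which releases glycerol from fat cells, and Aqp9, which takes up glycerol in liver, were low in both genotypes. Aqp7 ran from 1.46 to 2.39 in Tnfr1-/- libraries with a median of 1.86, and was 1.26, 1.31, 1.96, 1.27 and 2.38 in wild-type replicates 1 to 5, with overlapping groups. The fitted log2 fold change came to 0.20 (SE 0.16, adjusted p = 0.743 by limma). Adipocyte markers summed to 441 in Tnfr1-/- replicate 6 and 300 in replicate 4, and to 132 to 192 in the other libraries. Most of that sum was Fabp4 (382.5 and 253.1 in these replicates). Adipoq, Plin1 and Lep were also highest in these replicates, whereas Cidec and Plin4 were within the range of the other libraries. Aqp7 was at 2.39 in Tnfr1-/- replicate 6, but 1.96 in replicate 4. Its transcript ENSMUST00000030136.12 was highest in these replicates (1.336 and 0.753), while ENSMUST00000054945.7 was lowest of all libraries in replicate 6 (0.605). These transcript values were picked after they were seen, and the part of fat cells in them was not tested. Aqp9 ran from 0.239 to 1.4 in Tnfr1-/- libraries and from 0.553 to 0.910 in wild-type libraries, and without a filter the fitted log2 fold change came to 0.07 (SE 0.22, adjusted p = 0.949 by limma). The highest Aqp9 library, Tnfr1-/- replicate 6, also had the highest sum of neutrophil and myeloid markers (92.4, against 20.1 to 80.1 elsewhere). That sum was carried by S100a8 (39.9) and S100a9 (35.9), whereas Ly6g, Csf3r and Cxcr2 were within the range of the other libraries. The next highest sum, in wild-type replicate 2, went with an Aqp9 of 0.614. Most of that sum was Ly6g (61.2), with S100a8 at 8.72 and S100a9 at 9.26.

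Other genes of salt, water, glycerol and peroxide handling in the colon were not called either. In each of the lists below 0 genes were called by limma in either direction. Of 25 genes of colonic salt and water transport, 24 were tested, with 13 above and 11 below a log2 fold change of 0, and a median of 0.013 against -0.006 over all tested genes. At an unadjusted p under 0.05 were 6 of the 24, against 9.37% of all tested genes. Scnn1b, a subunit of the epithelial sodium channel, was at 10.3 ± 1.98 (SD) in the 6 Tnfr1-/- colons, against 7.24 ± 0.918 (SD) in the 5 wild-type colons, with an adjusted p = 0.384 by limma. Atp12a, the colonic proton-potassium pump, was at 150.0 ± 32.9 in Tnfr1-/- and 107 ± 14.6 in wild type (adjusted p = 0.398 by limma). Guca2b, which encodes uroguanylin, was at 43.3 ± 9.55 in Tnfr1-/- and 56.8 ± 4.43 in wild type (adjusted p = 0.412 by limma).

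Of 19 tested genes of hydrogen peroxide handling, 3 had a log2 fold change above 0 and 16 one below 0, with a median of -0.13 and 1 at an unadjusted p under 0.05. Over all 15079 tested genes 7855 were below 0, and 9.37% had an unadjusted p under 0.05. The superoxide dismutase Sod1 was at 493 ± 29.9 (SD) in the 6 Tnfr1-/- colons, against 547 ± 31.2 (SD) in the 5 wild-type colons (adjusted p = 0.461 by limma). Of 11 genes of glycerol handling, 4 were above and 7 below 0, with a median of -0.022 and 1 at an unadjusted p under 0.05. Gpat3, a glycerol phosphate acyltransferase, was at 9.17 ± 1.22 in Tnfr1-/- and 11.6 ± 1.92 in wild type (adjusted p = 0.472 by limma). Of 11 tested genes of the osmotic response, 7 were above and 4 below 0, with a median of 0.064 and 1 at an unadjusted p under 0.05. Nfat5, the transcription factor that responds to hypertonic stress, was at 9.5 ± 0.458 in Tnfr1-/- and 8.53 ± 0.517 in wild type (adjusted p = 0.470 by limma).

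The genes most like Aqp11 over the libraries were Akr1a1, an aldehyde reductase, Edf1, a transcriptional coactivator, and Bid, a BH3-only protein of apoptosis (r = 0.95, 0.93 and 0.92, rho 0.93, 0.92 and 0.84). Both genotypes entered r together, so likeness to Aqp11 includes the genotype difference for which Aqp11 was chosen. Bid ran from 6.27 to 7.36 in Tnfr1-/- libraries and from 9.59 to 13.6 in wild-type libraries. It was without overlap, as were 0.769% of all tested genes in this direction. Akr1a1 ran from 451 to 483 in Tnfr1-/- and from 481 to 554 in wild-type libraries. For Aqp8 the nearest were Zfp764, Ghdc and Rfxap (r = 0.94, 0.93 and 0.92). For Aqp1 they were Mllt6, Wwox and Trp53i13 (r = 0.97, 0.96 and 0.95), and for Aqp7 they were Wnt4, a secreted Wnt ligand, Polr1a, the large subunit of RNA polymerase I, and Pwp1 (r = 0.91, 0.90 and 0.87). These too are maxima over 10859 genes and are given as descriptions.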

How the data were processed

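Per the labels' protocols, colons were homogenised in Trizol, RNA was isolated with a Direct-zol kit, and a stranded mRNA kit gave single-end reads of 75 bases. CASAVA, kallisto and sleuth are tools, and mm10 the build, per the submitters' processing notes. Values deposited per library are a signal: from their sums, TPM rescaled by 1 factor a library. The deposited mean is on the natural log scale of normalized estimated counts, and the deposited p-value and q-value are from the authors' own transcript test. Repeated lines (584 transcripts, identical values) were kept once, giving 113193 transcripts, and 97 transcripts without a gene were left out.

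Depth was estimated: the deposited means tie abundance to length less 199 bases, and for each library the chosen factor puts the largest share of low values of single-transcript genes on whole reads, to within 0.02 (56.5% to 59.6% of them, against at most 2.03% at a typical factor). Not nearly all values were whole, so no count test was run. The depth sums transcripts whose ID and version are in GENCODE M21, and RPM was scaled to a total that also takes other versions. Genes and transcripts at 1 or more in at least 5 libraries entered limma 3.58.1 (R 4.3.3) as log2(value + 0.5) (trend on the mean, two-sided, Benjamini-Hochberg adjustment, threshold 0.05), which understates changes of low genes. P-values measure the spread between these libraries. The fit was tested on simulated data. Python 3.11.15, pandas 2.3.3, numpy 2.4.6, scipy 1.17.1 and matplotlib 3.10.9 were used. Positions and transcript sequences are from GENCODE M21 on GRCm38.

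The members, gene lists and tests were chosen with earlier results of these data known. Named genes are the family, Tnfrsf1a, up to 3 members of each list with the smallest p, and the 3 genes with a mean of at least 5 most like each aquaporin with a mean of at least 1. Other markers named were chosen after their values were seen.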

Additional observations from a re-analysis of the deposited data

How the results depend on the processing

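Under 23 other settings, 0 of the aquaporin genes tested besides Aqp11 were called by limma, and under 16 of them, where transcripts were fitted too, 0 of their transcripts were called. The settings were other pseudocounts, filters, scalings and weights, no trend, the replicate block, and libraries left out. The count of called genes was 1 in the main analysis, 1 to 2 when a single library was left out, 3 with sample quality weights and 2 with estimated reads summed per gene. Aqp1 (main log2 fold change 0.04) turned to -0.11 with sample quality weights and -0.19 without wild-type replicates 1 and 2, and ran from -0.051 to 0.126 with single libraries left out (below 0 without wild-type replicate 1 or 2). Aqp4 (main -0.19) turned to 0.41 with weights and 0.69 without those replicates, and ran from -0.51 to 0.19 with single libraries left out. The cause was not tested. Aqp3, Aqp7 and Aqp8 stayed above 0 in every setting that tested them, and Aqp11 stayed below 0, between -0.46 and -0.20. Its value nearest to 0 came from estimated reads, an alternative added after seeing the data, as was leaving out Tnfr1-/- replicates 2 and 4. The median of all genes stayed between -0.018 and 0.012. Numbers shared between genotypes were not taken as pairs in the main analysis. Correlations of deviations between libraries of the same number ran from -0.22 to 0.38, and 4 of 10 libraries correlated best with their own number. This does not settle whether the numbers pair the mice. With the replicate block, which leaves out Tnfr1-/- replicate 6, 1 gene was called and Aqp11 was at -0.40. Aqp5 and Aqp9 reached the filter value in only 3 libraries each and were fitted only without the filter or, for 1 of them, on estimated reads.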

Other observations

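Genes next to Aqp11 on chromosome 7 lay on both sides of 0. Of 16 protein-coding genes that lie within 0.5 Mb of Aqp11, 15 were tested by limma, 0 were called, 1 had an unadjusted p under 0.05, and 5 were above and 10 below a log2 fold change of 0 (median -0.054). Clns1a, a spliceosome assembly factor, whose gene ends beside Aqp11 (97696634 to 97720796), was at 48.0 ± 1.17 (SD) in the 6 Tnfr1-/- colons, against 52.8 ± 3.12 (SD) in the 5 wild-type colons, with 5 of 6 Tnfr1-/- libraries below the lowest wild type and a log2 fold change of -0.13 (limma adjusted p = 0.412). Pak1, on the other side, had a log2 fold change of -0.02 (limma adjusted p = 0.973), and Rsf1 one of 0.04 (limma adjusted p = 0.897), both chosen after their values were seen.

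The minor transcripts differed between libraries. For Aqp9 the transcripts ENSMUST00000060917.11 and ENSMUST00000074465.8 took 40.9% and 51.5% of the abundance on average, and each was listed at 0 in some libraries in which the other was not. The transcript ENSMUST00000206106.1 of Aqp8 was at 8.98 in wild-type replicate 3 and at 0.305 or less in the other 10 libraries. These transcripts were chosen after their values were seen and were not tested.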
